A study of Mus musculus with 8 samples.

Results

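The collagen family was described in pancreas cells of Dclk1-CreERT;tdtomato mice of the strain CBA x C57BL/6J. Its members were all rows of the count table whose gene symbol is Col, a number, the letter a and a number, which gave 43 of 23284 symbols. All 8 libraries came from mice that carry a tamoxifen-inducible Cre recombinase driven by Dclk1, the gene of a doublecortin-like kinase, and the red fluorescent tdTomato reporter. The 2 groups were 4 libraries of Dclk1+ cells, numbered 1 to 4, and 4 libraries of Dclk1- cells, numbered 5 to 8. In such mice tdTomato marks cells, and their descendants, in which Dclk1 was active when Cre was induced. The labels state neither the sorting gate nor the age of the mice nor the induction schedule. They also leave unsaid if each library is a mouse of its own, and the p-values below therefore describe library-to-library spread, which may be technical.

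Collagens are extracellular matrix proteins whose chains wind around each other in a triple helix of repeated glycine-X-Y units. In the pancreas, fibroblasts and stellate cells are the known main source of the fibrillar types I, III and V. Type IV collagen forms the sheet-like network of the basement membrane under ducts, acini and vessels and is made by epithelial, endothelial and mural cells. Type VI forms beaded filaments around cells, and the FACIT collagens sit on the surface of fibrils.

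The 250 bases before the transcription start are shown for Col27a1 and Col16a1, the 2 collagens that passed the test below, and for Col3a1, the most abundant collagen. The sequences are from RefSeq on build GRCm38.p6, for the start that the promoter table lists, and are not from the build of the counts. The Col27a1 window is chr4:63215162-63215411, the Col16a1 window chr4:130047590-130047839 and the Col3a1 window chr1:45311288-45311537, all on the plus strand. They run 5′ to 3′ and end at the base before the start. Capitals mark motif matches, searched on both strands. The GC box was searched as GGGCGG. The promoter element named for its letters was searched as CCAAT. The core promoter box was searched as TATAAA.
Col27a1: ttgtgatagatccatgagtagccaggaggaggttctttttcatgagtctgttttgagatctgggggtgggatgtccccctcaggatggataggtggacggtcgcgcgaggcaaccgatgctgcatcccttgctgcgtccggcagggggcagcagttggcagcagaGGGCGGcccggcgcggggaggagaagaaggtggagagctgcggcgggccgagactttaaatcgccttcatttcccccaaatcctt
Col16a1: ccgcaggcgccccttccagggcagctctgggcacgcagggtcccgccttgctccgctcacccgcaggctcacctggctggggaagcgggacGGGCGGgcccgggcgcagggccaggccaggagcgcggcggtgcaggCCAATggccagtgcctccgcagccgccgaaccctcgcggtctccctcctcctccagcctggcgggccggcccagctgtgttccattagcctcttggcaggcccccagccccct
Col3a1: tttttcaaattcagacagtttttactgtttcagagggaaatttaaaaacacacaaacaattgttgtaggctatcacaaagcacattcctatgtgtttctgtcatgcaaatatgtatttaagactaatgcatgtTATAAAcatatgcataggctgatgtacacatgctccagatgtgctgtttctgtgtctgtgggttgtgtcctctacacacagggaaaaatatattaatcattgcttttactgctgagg

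Col27a1 held a GC box that begins 85 bases before the start, and Col16a1 held a GC box at 159 and a CCAAT match at 113 bases before the start. Col3a1 held neither of these and had TATAAA at 117 bases before the start. Of all 32851 promoter windows of the same length, 32.7% held a GC box match, 33.8% a CCAAT match and 12.4% a TATAAA match. The table held 38 windows for 35 of the 43 collagen genes, and 22, 13 and 5 of those windows held the 3 motifs, respectively. These matches are descriptions of letters and do not show a factor bound there.

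Total counts ran from 7990777 to 10282911 in Dclk1+ and from 6353841 to 7242084 in Dclk1- libraries. Dclk1 itself ran from 17.9 to 221 CPM (counts relative to a library total scaled by TMM) in Dclk1+ and from 2.67 to 15.04 CPM in Dclk1- libraries. The groups did not overlap for Dclk1 (edgeR adjusted p = 0.0503), and library 4 was the lowest of the Dclk1+ libraries. Library 4 also stood apart by 8 leukocyte markers. Their summed level was 3143 CPM there. It ran from 58.5 to 430.1 CPM over Dclk1+ libraries 1 to 3 and from 3808 to 6312 CPM over the Dclk1- group, and edgeR called none of the 8. Among Dclk1- libraries, numbers 7 and 8 had the most ribosomal RNA, with 34.2% and 26.1% of counts from Rn45s, against at most 18.3% in any other library. Values without Dclk1+ library 4 or without Dclk1- library 7 are given for the collagens whose call or fold change they move.

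Collagen RNA took a larger share of the counts in most Dclk1+ libraries, but the groups overlapped. All 43 members together took 0.879%, 2.02%, 1.65% and 0.508% of the counts in Dclk1+ libraries 1 to 4, and 0.0934%, 0.254%, 0.575% and 0.145% in Dclk1- libraries 5 to 8. The means were 1.26% ± 0.693 and 0.267% ± 0.216 (SD, n = 4 each), a ratio of 4.74. Dclk1- library 7 lay above Dclk1+ library 4, and these libraries alone made the groups overlap. The 95% Wilson intervals of these shares were narrow (0.504% to 0.513% in library 4, 0.570% to 0.581% in library 7) and cover counting error only. Over all omissions of a single library the ratio of means ran from 3.798 without Dclk1+ library 2 to 7.71 without Dclk1- library 7. Without Dclk1+ library 4 it was 5.68. With Rn45s taken out of the totals the ratio was 3.96, and with TMM-scaled library sizes it was 4.06. Without Rn45s the share was 0.874% in Dclk1- library 7 and 0.622% in Dclk1+ library 4.

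The share moved with fibroblast markers. The summed level of 15 fibroblast and stellate markers, none of them a collagen and all of them detected, ran from 5033 to 43652 CPM in Dclk1+ and from 1518 to 7585 CPM in Dclk1- libraries. Library 7 had the highest value of the Dclk1- libraries and library 4 the lowest of the Dclk1+ libraries, the same order as for collagen. Of these markers 14 were tested, 13 had a positive and 1 a negative log2 fold change (median 2.39), and none was called. The exception was Thy1, which T cells also carry. Per fibroblast-marker count, the collagen counts were 0.770, 0.485, 1.05 and 0.996 in Dclk1+ libraries 1 to 4 and 0.587, 0.596, 0.987 and 0.857 in Dclk1- libraries 5 to 8. On this scale Dclk1+ averaged 0.825 ± 0.257 and Dclk1- 0.757 ± 0.198 (SD, n = 4 each). The lowest value was in Dclk1+ library 2, which had the most collagen RNA. Both means rest on a marker sum that includes Thy1. That gene made up 1059 of the summed 7585 CPM of library 7 and 755 of the 1799 CPM of library 8. No Dclk1+ library had more than 328 CPM of it. With Thy1 left out of the sum, the Dclk1- mean lies above the Dclk1+ mean. The order of the means thus depends on Thy1. The part of fibroblast number in the collagen share was not tested. In bulk libraries fewer cells of a type and less RNA per cell cannot be told apart.

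**Figure D1:**
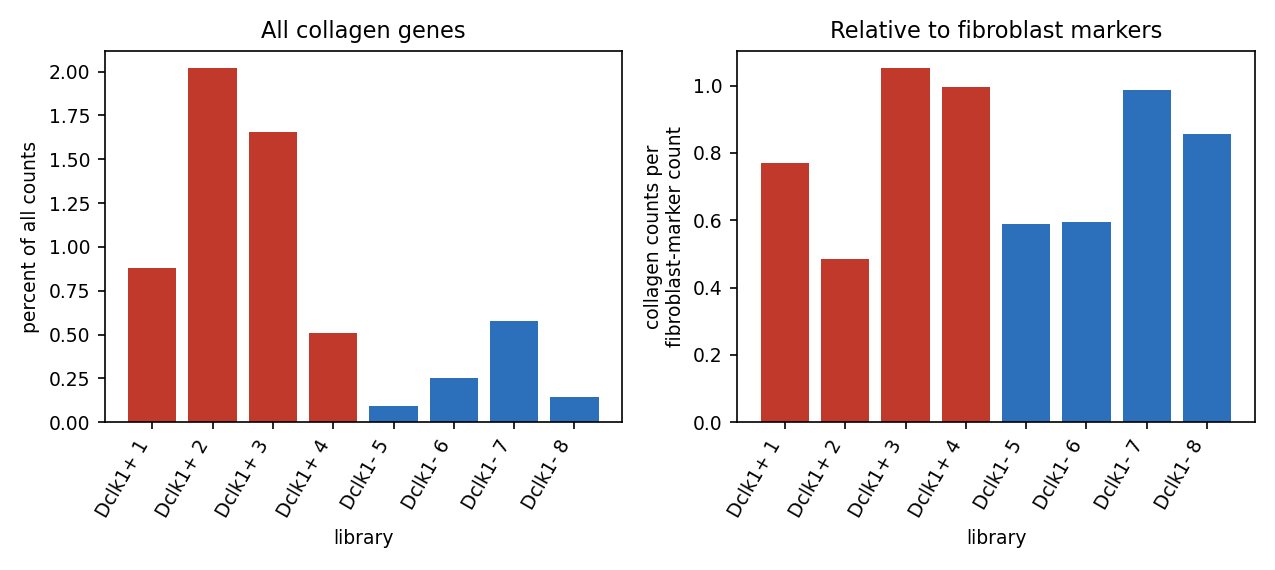
Left, percent of all counts in each library from the 43 collagen genes; right, collagen counts divided by the counts of 15 fibroblast markers. Bars are single libraries, red for Dclk1+ and blue for Dclk1-; on the left Dclk1- library 7 (0.575%) lies above Dclk1+ library 4 (0.508%), and on the right the ranges overlap (0.485 to 1.05 and 0.587 to 0.987).

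Gene by gene, 31 members had enough counts to be tested in edgeR. Of these, 28 had a positive and 3 a negative log2 fold change, with a median of 1.96, beside a median of -0.08 and a positive share of 47.1% over all 13274 genes tested. The fit called Col27a1 and Col16a1 higher in Dclk1+ cells and called no collagen lower. That is 2 of 31 members, where 3.49% of all genes were called, 2.47% higher and 1.02% lower. At an adjusted p under 0.1 edgeR listed 13 members, all higher, beside 13.1% of all genes higher and 21.1% in either direction. The groups did not overlap in 5 members (Col14a1, Col4a2, Col5a2, Col27a1 and Col16a1), each higher in Dclk1+, beside 10.7% of all genes in that direction. At an unadjusted p under 0.05 there were 18 members higher and 0 lower, beside 18.3% of all genes higher. A further 12 members were too low to test.

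The number of calls depended on single libraries. Leaving out any library other than Dclk1+ library 4 left 0 calls among members and over all genes. The values without library 4 below thus come from the only omission that raised the calls. Without library 4 edgeR called 14 of 32 members, all higher, beside 12.1% of all genes called higher. These were Col27a1, Col16a1 and 12 further members: Col12a1, Col14a1, Col15a1, Col18a1, Col4a1, Col4a2, Col4a4, Col4a5, Col5a2, Col5a3, Col6a3 and Col8a1. The groups then did not overlap in 18 of 32 members, beside 18.4% of all genes. Without Dclk1- library 7 edgeR called 0 members, as it called 0 of all genes, while the groups did not overlap in 15 of 33 members, beside 14.9% of all genes. Over the 12 most abundant collagens the log2 fold changes without library 7 ran from 2.44 to 3.86 (edgeR adjusted p from 0.0670 to 0.0794), against 1.72 to 3.04 with it. Dclk1+ library 2 was the highest library for 10 of these 12. Without library 2 their log2 fold changes ran from 1.33 for Col6a2 to 2.12 for Col14a1 (edgeR adjusted p from 0.0974 to 0.352). DESeq2 on all 8 libraries called 18 of 31 members higher and 0 lower, beside 17.4% and 8.62% of all genes. limma-voom called Col14a1, Col27a1 and Col5a2, all higher and without Col16a1, beside 6.64% of all genes (3.07% higher and 3.58% lower).

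**Figure D2:**
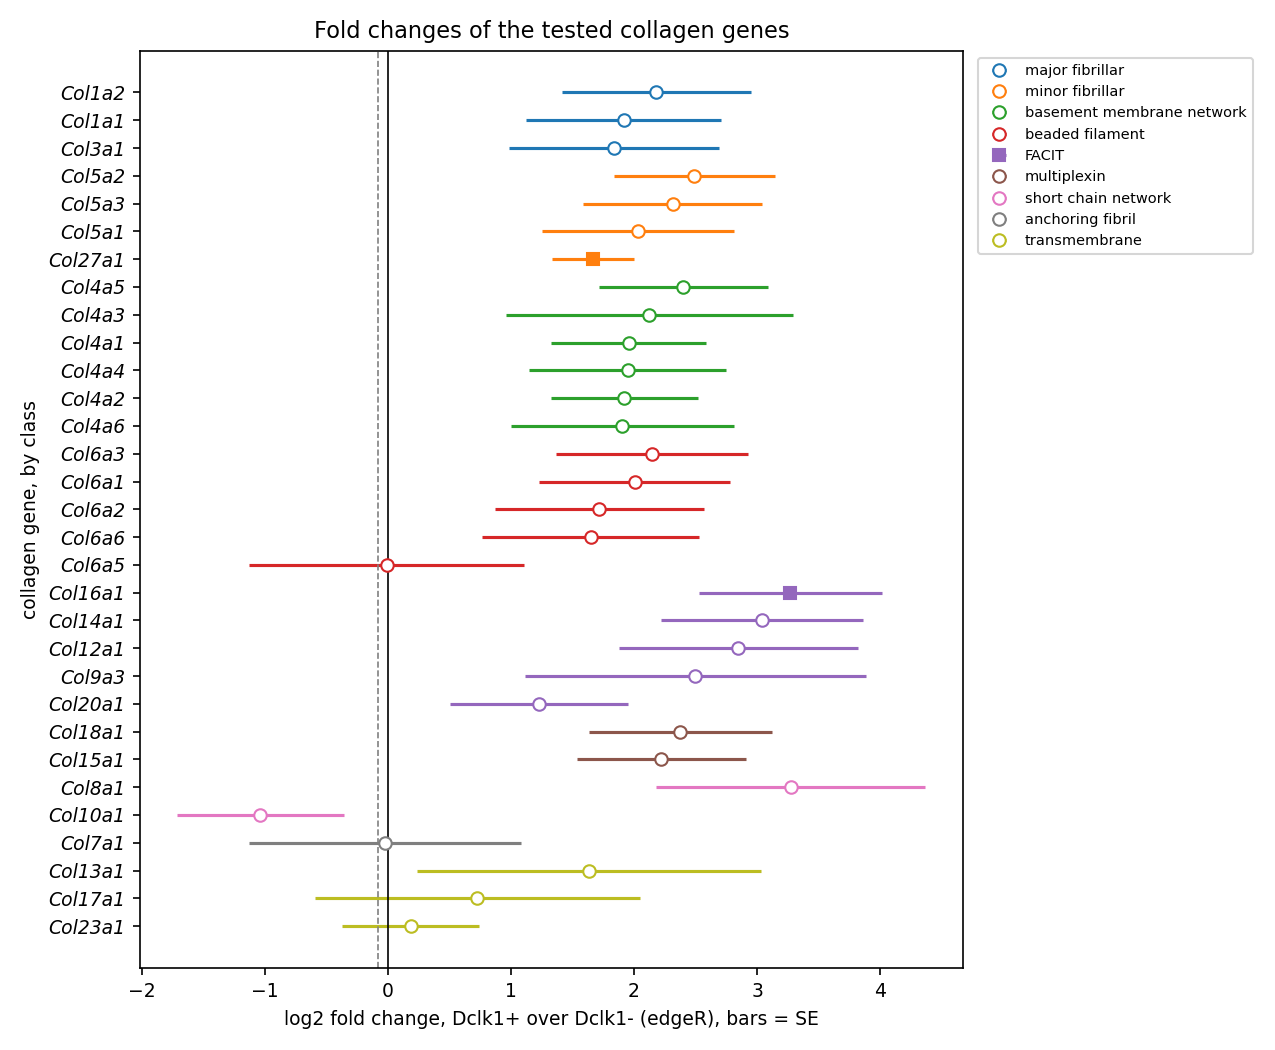
Log2 fold changes of the 31 tested collagen genes (horizontal axis, Dclk1+ over Dclk1-, from edgeR), ordered and coloured by class; bars are standard errors and the dashed line is the median of all tested genes. Filled squares mark Col27a1 and Col16a1, the genes past the threshold, and open circles the members that did not pass it; only Col10a1, Col7a1 and Col6a5 lie left of 0.

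Col27a1 encodes a fibrillar collagen best known from cartilage, and it varied least among the named members. It was at 47.8, 43.0, 47.4 and 29.3 CPM in Dclk1+ libraries 1 to 4 and at 10.4, 19.2, 10.6 and 12.4 CPM in Dclk1- libraries 5 to 8. The groups were fully separate, with library 4 the lowest of the Dclk1+ group. The log2 fold change was 1.67 ± 0.33 (SE, edgeR adjusted p = 0.0469), and without library 4 it was 1.94 (edgeR adjusted p = 0.0129). Leaving out any other single library ended the call, with an edgeR adjusted p of at most 0.112.

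Col16a1, a FACIT collagen of connective tissue, was at 22.1, 31.6, 11.8 and 4.22 CPM in Dclk1+ libraries 1 to 4 and at 0.735, 2.55, 2.90 and 1.002 CPM in Dclk1- libraries 5 to 8. The groups did not overlap, and Dclk1+ library 4 was closest to the Dclk1- values. The log2 fold change was 3.27 ± 0.74 (SE, edgeR adjusted p = 0.0492), and without library 4 it was 3.70 (edgeR adjusted p = 0.0129). Leaving out any other single library ended the call, with an edgeR adjusted p of at most 0.114. The call was also lost with limma-voom (adjusted p = 0.0950) and with upper quartile scaling in edgeR (adjusted p = 0.0501).

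The major fibrillar chains held between 40.7% and 64.6% of the collagen counts of a library. Col3a1, the chain of type III collagen of reticular fibres, was at 1931, 6009.8, 4930.3 and 1878 CPM in Dclk1+ libraries 1 to 4 and at 206, 519.9, 2892 and 510.3 CPM in Dclk1- libraries 5 to 8. Library 7 exceeded Dclk1+ libraries 1 and 4, so the groups overlapped. The log2 fold change was 1.84 ± 0.86 (SE, edgeR adjusted p = 0.172), and 3.24 ± 0.72 without library 7 (edgeR adjusted p = 0.0670).

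Type I collagen is built from the chains of Col1a1 and Col1a2. Col1a2 was at 1397, 3641, 2098 and 745 CPM in Dclk1+ and at 110.3, 344, 1052 and 229.8 CPM in Dclk1- libraries, in the same order. Col1a1 was at 822, 1711, 1541 and 614 CPM against 46.9, 166, 826 and 205 CPM. In both genes library 7 lay above library 4, and Dclk1+ library 2 was the highest of all. The log2 fold changes were 2.18 ± 0.77 for Col1a2 and 1.91 ± 0.79 for Col1a1 (SE, edgeR adjusted p = 0.0930 and 0.134). They were 2.52 and 2.19 without library 4 (edgeR adjusted p = 0.0553 and 0.105), and 3.20 and 3.15 without library 7 (edgeR adjusted p = 0.0672 and 0.0670).

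Col5a1 and Col5a2 encode chains of type V collagen, which nucleates type I fibrils. Col5a2 was at 159, 506, 235 and 81.4 CPM in Dclk1+ libraries 1 to 4 and at 17.5, 50.1, 80.5 and 26.6 CPM in Dclk1- libraries 5 to 8. The groups were separate by the small gap between libraries 4 and 7. Its log2 fold change was 2.49 ± 0.66 (SE, edgeR adjusted p = 0.0547), and 2.87 without library 4 (edgeR adjusted p = 0.0191). Col5a1 was at 419, 1062, 672 and 207 CPM against 34.7, 93.8, 377 and 71.3 CPM, with an overlap of libraries 4 and 7 and an edgeR adjusted p of 0.114. Its log2 fold change was 2.03 ± 0.78 (SE), 2.38 without library 4 and 3.24 without library 7. Col5a3, for another type V chain, had an edgeR adjusted p of 0.0738 at a log2 fold change of 2.31 ± 0.73 (SE), and 0.0189 without library 4.

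**Figure D3:**
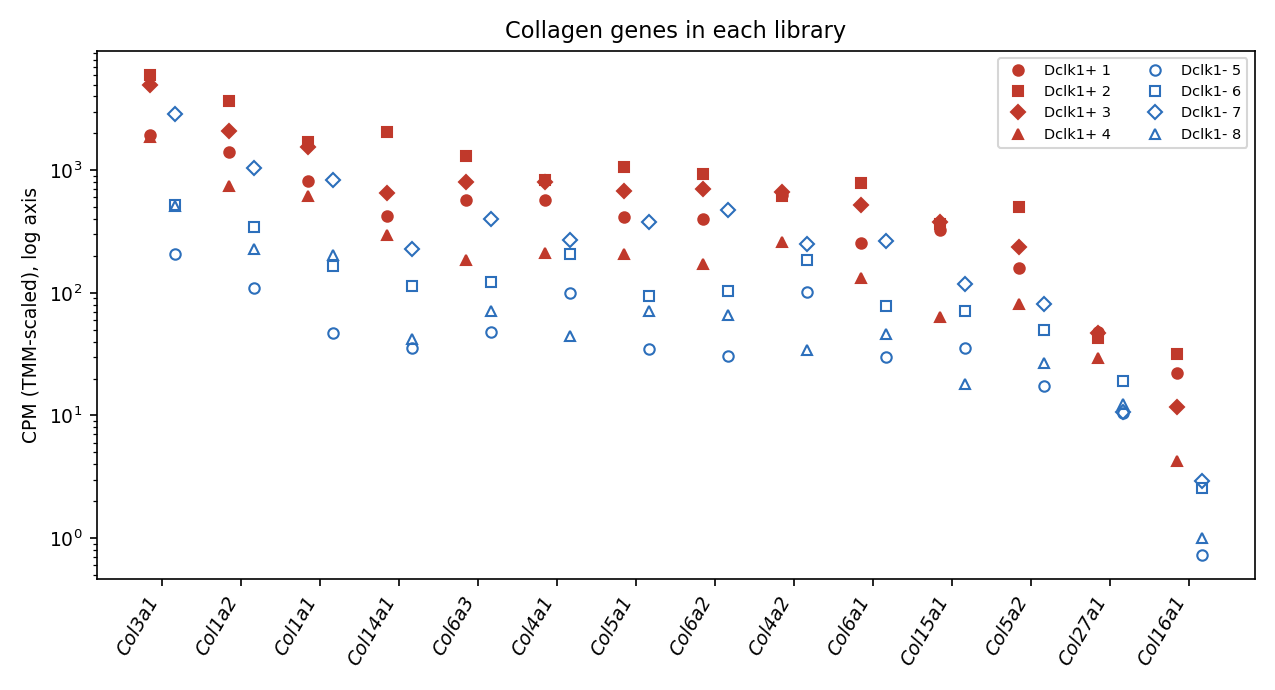
Level in each library (vertical log axis, CPM) of the 12 most abundant collagen genes and of Col27a1 and Col16a1. Filled red symbols are Dclk1+ and open blue symbols Dclk1- libraries; Dclk1+ library 4 (triangles) is the lowest of its group and Dclk1- library 7 (diamonds) the highest of its group in all of the 12 most abundant genes.

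All 6 type IV collagen genes were tested, and all had positive log2 fold changes, from 1.90 to 2.40, with none called. Col4a1 and Col4a2 encode the chains found in nearly every basement membrane and lie head to head on one chromosome. Col4a1 was at 573, 829, 805 and 209.65 CPM in Dclk1+ libraries 1 to 4 and at 100.3, 207, 271 and 44.3 CPM in Dclk1- libraries 5 to 8. Col4a2 was at 624, 615, 669.8 and 261 CPM against 101, 185, 252 and 34.1 CPM. Library 7 was above library 4 for Col4a1 and just below it for Col4a2, whose groups did not overlap. The log2 fold changes were 1.96 ± 0.63 and 1.92 ± 0.59 (SE, edgeR adjusted p = 0.0762 and 0.0718), and without library 4 they were 2.35 and 2.26 (edgeR adjusted p = 0.0304 and 0.0357).

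The other type IV chains are known from specialised basement membranes, such as the glomerulus for Col4a3, Col4a4 and Col4a5. Col4a3 ran from 3.22 to 77.0 CPM in Dclk1+ and from 0 to 13.7 CPM in Dclk1- libraries, with its highest value in library 2. Col4a5 had an edgeR adjusted p of 0.0633 at a log2 fold change of 2.40 ± 0.69 (SE), 0.0230 without library 4, and was highest in Dclk1+ library 3, at 68.3 CPM. Col4a4 and Col4a6 stayed at or below 20.8 and 10.6 CPM in every library.

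Type VI collagen is assembled from the products of Col6a1, Col6a2 and one further chain, most often that of Col6a3. Col6a3 was at 569, 1297, 796 and 187 CPM in Dclk1+ libraries 1 to 4 and at 47.6, 124, 402 and 71.5 CPM in Dclk1- libraries 5 to 8. Col6a2 was at 398, 936, 701 and 172 CPM against 30.4, 104, 469.9 and 66.1 CPM. Col6a1 was at 253, 780.2, 522 and 132 CPM against 30.0, 77.5, 267 and 46.4 CPM. In all of these chains library 7 exceeded library 4, and for Col6a2 and Col6a1 also library 1. Their log2 fold changes were 2.14 ± 0.78, 1.72 ± 0.85 and 2.01 ± 0.78 (SE, edgeR adjusted p = 0.1002, 0.192 and 0.116). Without library 4 they were 2.53, 2.08 and 2.37, and Col6a3 passed (edgeR adjusted p = 0.0483, 0.124 and 0.0637). Without library 7 they were 3.24, 3.14 and 3.14, and none passed the edgeR threshold. Col6a5, for an alternative to the Col6a3 chain, averaged 22.5 ± 21.3 CPM over Dclk1+ and 22.7 ± 23.4 CPM over Dclk1- (SD, n = 4 each), with a log2 fold change of -0.01 ± 1.11 (SE).

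The FACIT class had the highest median log2 fold change of the classes with at least 3 tested members, 2.85 over 5 members. Col14a1, which encodes undulin of fibril surfaces, was at 427, 2065, 653 and 295 CPM in Dclk1+ libraries 1 to 4 and at 35.4, 114, 227 and 41.7 CPM in Dclk1- libraries 5 to 8. The groups did not overlap, and Dclk1+ library 2 was far above every other library. Its log2 fold change was 3.04 ± 0.82 (SE, edgeR adjusted p = 0.0569), and 3.39 without library 4 (edgeR adjusted p = 0.0263). Without Dclk1+ library 2 it was 2.12 (edgeR adjusted p = 0.101). Col12a1, a relative found in tendon and dense tissue, was at 199, 212, 34.3 and 20.7 CPM against 4.41, 7.76, 7.53 and 44.9 CPM. Dclk1- library 8 thus lay above Dclk1+ libraries 3 and 4. Its log2 fold change was 2.85 ± 0.97 (SE, edgeR adjusted p = 0.0887), and 3.31 without library 4 (edgeR adjusted p = 0.0373). Col9a3, which encodes a chain of the cartilage collagen IX, was highest in Dclk1+ library 3 at 28.2 CPM and was at 0 CPM in library 1.

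Relative to the fibroblast markers, with Thy1 among them, Col14a1 and Col16a1 were the members whose groups still did not overlap. In Dclk1- library 8 Thy1 made up 755 of the summed 1799 CPM. With Thy1 left out of the sum, library 8 lies above Dclk1+ library 1 for Col14a1 and above Dclk1+ library 2 for Col16a1. Both separations thus depend on Thy1. Col16a1 also had only 5 and 6 counts in Dclk1- libraries 5 and 8. With Thy1 included, Col14a1 and Col16a1 were 2 of 31 tested members, both higher per marker count in Dclk1+, beside 0.151% of all genes tested. No member was lower in this sense, beside 19.3% of all genes. The marker sum was higher in most Dclk1+ libraries, so dividing by it lowers genes there relative to Dclk1-. That holds for the collagens and for all other genes alike. Whether collagens differ from other genes on this scale was not tested, and both higher members depend on Thy1 in the sum.

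The multiplexins Col15a1 and Col18a1 encode collagens of basement membrane zones, and Col18a1 is the precursor of the fragment endostatin. Col15a1 was at 328, 366, 378 and 63.2 CPM in Dclk1+ libraries 1 to 4 and at 35.7, 71.1, 118 and 18.0 CPM in Dclk1- libraries 5 to 8. Dclk1+ library 4 lay below Dclk1- libraries 6 and 7, and the other Dclk1+ libraries were close to each other. The log2 fold change was 2.22 ± 0.69 (SE, edgeR adjusted p = 0.0721), and 2.66 without library 4 (edgeR adjusted p = 0.0219). Col18a1 had an edgeR adjusted p of 0.0735 at a log2 fold change of 2.38 ± 0.74 (SE), and 0.0264 without library 4.

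The short chain, anchoring fibril and transmembrane collagens varied widely. Of the short chain collagens, Col8a1, a collagen of vessel walls, reached 353 CPM in Dclk1+ library 2, and no other library exceeded 49.4 CPM. Its log2 fold change of 3.28 ± 1.09 (SE) was the largest of the 31 tested members (edgeR adjusted p = 0.0832), and it was 3.74 without library 4 (edgeR adjusted p = 0.0299). Over all omissions of a single library it ran from 1.30 to 3.74, with an edgeR adjusted p of at most 0.266. Col10a1, known from hypertrophic cartilage, had an edgeR adjusted p of 0.313 at a log2 fold change of -1.04 ± 0.68 (SE) and was at 4.36 ± 2.65 CPM against 8.94 ± 5.40 CPM (SD, n = 4 each). Col7a1, the anchoring fibril collagen of skin, had one of -0.03 ± 1.11. The transmembrane collagens Col13a1, Col17a1 and Col23a1, of which Col17a1 belongs to hemidesmosomes, had log2 fold changes of 1.64 ± 1.40, 0.73 ± 1.32 and 0.18 ± 0.56.

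Of the 12 members that were not tested, Col2a1 and Col9a1, collagens of cartilage, had 0 counts in every library, which allows up to 0.292 to 0.472 CPM in a single library before scaling. A few of the others had most of their counts in 1 or 2 libraries. Col6a4 had 130 counts in Dclk1- library 8 and 93 in Dclk1+ library 1 but at most 15 in any other library. Col19a1 had 76 counts in Dclk1+ library 1 and at most 2 elsewhere. The remaining untested members (Col8a2, Col11a1, Col11a2, Col22a1, Col24a1, Col25a1, Col28a1 and Col9a2) had at most 34 counts in any library.

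Per kilobase of exon (GENCODE vM21 exon lengths) the order of levels can be compared between genes. In Dclk1+ libraries Col3a1 was highest at 663 ± 378 CPM per kilobase, then Col1a2 at 368 ± 233, Col1a1 at 198 ± 90.3 and Col14a1 at 133 ± 126 (SD, n = 4 each). Col6a1 followed at 103 ± 70.5, Col6a2 at 91.8 ± 55.8, Col4a1 at 91.3 ± 43.4 and Col4a2 at 84.1 ± 29.3 CPM per kilobase. Every pair of neighbours in this order differed by less than the larger SD of the pair. That SD is the spread between libraries, while both genes of a pair were measured in the same libraries. Within every library of both groups, Col3a1 was above Col1a2 and Col1a2 above Col1a1 per kilobase. In Dclk1- libraries the leading genes were again Col3a1, Col1a2 and Col1a1, at 186 ± 224, 81.2 ± 79.1 and 52.4 ± 59.0 CPM per kilobase. Col14a1 stood lower in that order, at 16.2 ± 13.8, below Col6a2 at 27.9 ± 33.9 and Col4a1 at 23.5 ± 15.5.

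Ratios between chains varied little beside the levels themselves. The count of Col4a1 per count of Col4a2 lay between 0.803 and 1.35 in all 8 libraries, while the level of either gene varied far more. The ratio of Col6a1 to Col6a2 ran from 0.567 to 0.985, and that of Col3a1 to Col1a1 from 2.35 to 4.39. The ratio of Col1a1 to Col1a2 was lower in some libraries of each group, at 0.425 and 0.482 in Dclk1- libraries 5 and 6 and 0.470 in Dclk1+ library 2, against 0.588 to 0.890 in the others. Libraries 2, 5 and 6 also had the lowest Rn45s shares, at 8.90%, 9.34% and 9.92%. Library 7, with the most Rn45s, had a ratio of 0.785, below the 0.890 of library 8. A link between this ratio and the Rn45s share was not tested. The log2 ratios differed between Dclk1+ and Dclk1- by 0.06 for Col1a1 to Col1a2, -0.09 for Col4a1 to Col4a2, 0.01 for Col6a1 to Col6a2 and -0.14 for Col3a1 to Col1a1. Each difference was within the spread of the libraries (SD of 0.16 to 0.52 within a group, exact two-sided permutation p from 0.514 to 0.914 and adjusted p = 0.914 over the 4 ratios, n = 4 each). The smallest p this design allows is 0.0286.

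The balance between basement membrane and fibrillar collagen varied widely within each group. Counts of Col4a1 and Col4a2 per 100 counts of Col1a1, Col1a2 and Col3a1 were 28.8, 12.7, 17.2 and 14.5 in Dclk1+ libraries 1 to 4 and 55.5, 38.1, 10.97 and 8.29 in Dclk1- libraries 5 to 8. The highest and the lowest values were both in Dclk1- libraries. Counts of 11 endothelial markers per 100 fibroblast-marker counts were 26.2, 1.22, 9.49 and 18.1 in libraries 1 to 4 and 43.0, 28.4, 2.94 and 10.1 in libraries 5 to 8. Libraries 5, 6 and 1 were the top 3 in that order in both measures. Below them the orders differed. Library 8 was lowest for the collagen balance (8.29) but not for the endothelial measure (10.1). Library 2 was lowest for the endothelial measure (1.22) but not for the balance (12.7). Each measure divides by genes that fibroblasts express, and the marker sum includes Thy1. The part of endothelial RNA in this balance was not tested.

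**Figure D4:**
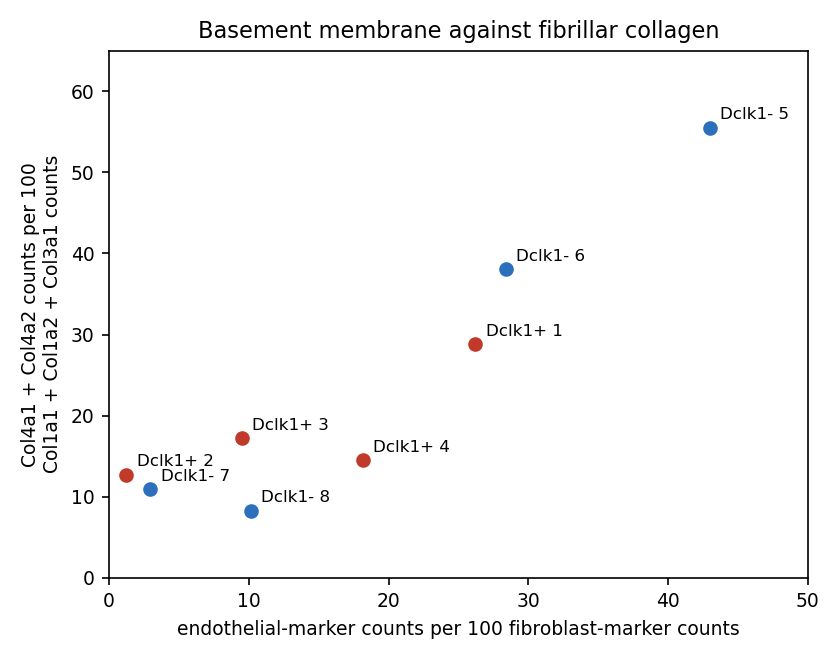
Each point is 1 library, red for Dclk1+ and blue for Dclk1-: endothelial-marker counts per 100 fibroblast-marker counts (horizontal) against Col4a1 and Col4a2 counts per 100 counts of Col1a1, Col1a2 and Col3a1 (vertical). Dclk1- libraries 5 and 6 have the highest vertical values (55.5 and 38.1) and Dclk1- libraries 7 and 8 the lowest (10.97 and 8.29).

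Genes that make, export and bind collagen were read from lists, beside 47.1% of all genes with a positive log2 fold change and 2.47% called higher. Of 17 tested genes for chain modification and folding, 16 had positive log2 fold changes (median 1.59) and none was called. P4hb, the subunit shared by prolyl 4-hydroxylase and protein disulfide isomerase, averaged 391.8 ± 90.7 CPM over Dclk1+ and 248 ± 75.3 CPM over Dclk1- (SD, n = 4 each). Serpinh1, the collagen chaperone Hsp47, was at 228 ± 133 CPM against 78.7 ± 101 CPM. The secretion list held 8 tested genes, 5 positive and 3 negative (median 0.65), and none was called. Its most abundant genes, the COPII coat gene Sec31a and the export receptor gene Ctage5, had log2 fold changes of 0.34 ± 0.33 and -0.08 ± 0.32 (SE).

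Enzymes that act outside the cell had 1 call. For this list and the receptor list, the shares over all genes were again 47.1% positive and 2.47% called higher. Of 12 tested genes for propeptide removal and cross-linking, all were positive (median 2.29) and Loxl3, a lysyl oxidase, was called higher, at 51.7 ± 38.0 CPM against 9.40 ± 4.53 CPM (SD, n = 4 each, edgeR adjusted p = 0.0495). Of 9 collagen receptor and uptake genes tested, all were positive (median 1.66), and Itgb1 was called higher. Itgb1 encodes the beta chain common to the collagen-binding integrins and averaged 401 ± 125 CPM over Dclk1+ and 136 ± 38.8 CPM over Dclk1-. Its log2 fold change was 1.56 ± 0.36 (SE), with an edgeR adjusted p of 0.0492. The calls of Loxl3 and Itgb1 were lost, as were all calls of edgeR, on leaving out any single library other than Dclk1+ library 4. The receptor kinase gene Ddr2, which binds fibrillar collagen, was at 516, 1788, 302 and 113 CPM in Dclk1+ and at 49.9, 133, 47.9 and 17.9 CPM in Dclk1- libraries, with library 6 above library 4 (edgeR adjusted p = 0.0558). Ddr2 was named after its values were seen. Of 10 fibril-associated protein genes, all positive (median 2.42), none was called, and Fbn1 and Dcn, for fibrillin and decorin, had log2 fold changes of 2.87 ± 0.91 and 2.53 ± 0.89 (SE). Both are also in the fibroblast list.

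Markers of other cell types also varied in level between these libraries. Of 11 pericyte and smooth muscle markers all were positive (median 2.69, summed 188 to 2214 CPM in Dclk1+ and 41.4 to 153 CPM in Dclk1-), and none was called. The 11 endothelial markers were summed at 531 to 2902 CPM against 182 to 1061 CPM, and none was called. The lowest Dclk1+ sum, in library 2, rested on Tek, which made up 457 of the 531 CPM. No other marker of the 11 exceeded 22.5 CPM in that library, and Pecam1 was at 12.3 CPM. Of the duct and epithelial markers 10 were tested and all were positive (median 3.96), and Krt8, Sox9 and Spp1 were called higher, beside 47.1% positive and 2.47% called higher of all genes (summed 188 to 5516 CPM against 50.4 to 161 CPM). Acinar markers were summed at 15282 to 63292 CPM against 3493 to 73859 CPM, and the summed Schwann markers were at most 7.16 CPM in any library. Mesothelial markers were summed at 11.7 to 65.3 CPM in Dclk1+ and 5.09 to 71.3 CPM in Dclk1- libraries. Within Dclk1+, library 2 had the most collagen and the lowest duct and epithelial sum, and library 1 had the highest pericyte and smooth muscle sum. The part of each of these cell types in the collagen values was not tested.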

How the data were processed

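RNA of Dclk1+ and Dclk1- pancreas cells was sequenced in 8 libraries after amplification with the Ovation RNA-Seq System V2, per the labels' protocols. The deposited values are raw read counts per gene symbol, with no normalization. The submitters' processing notes list build mm9, HTSeq 0.6.1 and bcl2fastq 1.8.4. They name TopHat2 2.0.4 with Bowtie2 2.0.0 for library 5, and TopHat with Bowtie 0.12.7 for the other 7. No source used here gives the annotation, strand setting or filters of the counting. No sample columns were left unmapped, and 25 symbols that a spreadsheet had turned into dates stayed in the tests. Replicate libraries differed beyond sampling noise (chi-square per degree of freedom at least 19.8).

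The whole table of counts entered edgeR 4.0.16 (R 4.3.3): filterByExpr (minimum count 10, minimum total 15), TMM scaling, a quasi-likelihood F test of group alone, and Benjamini-Hochberg adjustment over 13274 genes at a threshold of 0.05. The edgeR step was also tested on simulated data. CPM use TMM-scaled library sizes, and 3 counts are taken as the floor for a count of 0. Alternatives were DESeq2 1.42.0, limma-voom (limma 3.58.1), other scalings and filters, and leaving out each library. Chain ratios used counts plus 0.5. Reads from amplified RNA with no molecular identifiers do not count independent molecules, and intervals cover counting error only. Library 5 differs from the others in its aligner, and its omission is among the alternatives.

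Members named with all values are those edgeR called and the 12 of highest mean CPM; any other member given by value was picked with its values in view. The members and lists were chosen with earlier results of these data known.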

Additional observations from a re-analysis of the deposited data

Results flagged for a closer look

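A Dixon test at the 95% level was applied to each group of 4 libraries for the named collagens, the collagen share and the 4 chain ratios, and chance flags about 1 in 20 groups. It marked 4 of 38 groups. Dclk1- library 7 stood apart from the other Dclk1- libraries for Col3a1, at 2892 CPM, and for Col6a2, at 469.9 CPM. Dclk1+ library 4 stood apart from the other Dclk1+ libraries for Col4a2, at 261 CPM, and for Col15a1, at 63.2 CPM.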

How the results depend on the processing

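Over all genes edgeR called 463, and 2 collagens. With DESeq2's scaling (RLE) in edgeR the counts were 858 and 2, with upper quartile scaling 321 and 1, with no filter 1057 and 4, with at least 50 counts in 4 libraries 1120 and 3, with DESeq2 3422 and 18, and with limma-voom 882 and 3. Leaving out 1 library gave 0 to 2481 genes and 0 to 14 collagens: the upper values came without Dclk1+ library 4, and each of the other 7 omissions gave 0 (at an unadjusted p under 0.05, 3092 to 4005 genes and 12 to 21 collagens higher). Without both Dclk1- libraries 7 and 8, an alternative added after seeing the data, both counts were 0 (unadjusted, 3588 genes and 18 collagens higher). The median log2 fold change of the tested collagens stayed between 1.58 and 2.74 in every alternative, and Col27a1, Col16a1 and the 12 most abundant collagens kept their direction. Without Dclk1+ library 4 the log2 fold changes of Col6a5, Col7a1 and Col17a1 turned to 0.45, 0.35 and -0.098. Other omissions also turned signs. Over all omissions of a single library Col6a5 ran from -0.68 to 1.04, the highest without Dclk1- library 7. Col7a1 ran from -1.05 to 0.87 and Col23a1 from -0.058 to 0.69. Of the log2 ratio differences, 3 turned sign when single libraries were left out, over ranges of -0.12 to 0.23 for Col1a1 to Col1a2, -0.22 to 0.034 for Col4a1 to Col4a2 and -0.11 to 0.15 for Col6a1 to Col6a2, while Col3a1 to Col1a1 stayed negative, from -0.28 to -0.0077. The cause of these shifts was not tested. No paired analysis was possible because the labels number the groups 1 to 4 and 5 to 8. The common biological coefficient of variation was 0.625.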
